A study of Mus musculus with 1 sample.

Results

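The 9 transcription factor genes Cux1, Cux2, Pou3f1, Pou3f2, Pou3f3, Rorb, Lhx2, Foxp1 and Mef2c, which are used as marks or regulators of upper-layer neurons, were described in sc-RNA Seq data of the newborn mouse cortex. They were taken by symbol, and all 9 were found among the 51912 genes listed. The data came from 1 WT library of the cerebral cortex of C57BL/6 mice at P0, the day of birth, although its title speaks of the telencephalon. The tissue was digested into single cells and captured with the 10x Genomics Chromium kit, in which a unique molecular identifier (UMI) marks each captured transcript. The library held 11062 cells and 90346034 UMIs. How many animals went into it is not given in the sources used here. With 1 library there was no replicate, so no test was run, and each bracketed range is a 95% interval that covers counting error alone.

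The neocortex is built inside-out: neurons of layers V and VI are born first, and those of layers II to IV migrate past them and settle above. Upper-layer neurons mostly connect one cortical area with another, many through the corpus callosum, while many layer V and layer VI neurons project to targets below the cortex. Transcription factors of the CUT homeobox, POU, LIM homeobox, forkhead, nuclear receptor and MADS-box families are known to take part in setting these fates, and several of them also act earlier, in progenitors, or in other cell types.

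To describe the 9 genes without using them to define the cells, cells were sorted by the UMIs of other marker genes. An excitatory cell was placed in the upper-layer group when a panel of 8 genes (Unc5d, Inhba, Mdga1, Nectin3, Dok5, Epha3, Hs6st2 and Limch1) held at least 3 UMIs and at least 70% of the UMIs of all layer panels. Layer V was gated by Bcl11b, Fezf2, Ldb2 and Crim1, and layer VI by Tle4, Foxp2, Hs3st4 and Zfpm2. These gates gave 4044 upper-layer cells (median 8498 UMIs per cell), 115 layer V cells (20781) and 266 layer VI cells (8886). A further 1006 cells met the deep panels together but no single one, and the deep group pooled these with layers V and VI and with 42 cells of a layer VIb gate described below, 1429 cells in all (9786). Newborn neurons, marked by Eomes, Neurog2 and Neurog1, were 147 cells (7047). Levels below are CPM, that is the UMIs of a gene summed over the cells of a group and scaled by all non-mitochondrial UMIs of the group to 1000000.

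Genes kept out of the gates were used to check the labels. Plxna4, a receptor of axon guidance, stood at 522 CPM in the upper-layer group and 90.95 in the deep group, and Tle1, a corepressor, at 78.96 and 20.2 CPM. Within the deep group Tle1 was at 45.3 CPM in layer V and 1.79 in layer VI. The 3 check genes of layer V were higher there than in layer VI, namely Crym at 309 against 157 CPM, Fam19a1 at 382 against 3.13 CPM and S100a10 at 635 against 70.2 CPM. The 4 of layer VI were higher in layer VI than in layer V: Sox5 at 1008 against 434 CPM, Nxph3 at 318 against 6.76 CPM, Islr2 at 539.8 against 161 CPM and Tbr1 at 261 against 31.4 CPM. One gate went against its label. The 42 cells gated by a layer VIb panel were led by Nr4a2 at 3728 CPM, had no UMI of Nxph4 and held Bcl11b at 8.35 CPM, so they are called the Nr4a2-led group here and no layer is given to them. A gate for Etv1 and Tshz2 found 0 cells. Excitatory markers were seen at low level outside excitatory cells. Neurod2, one of the genes of the excitatory gate, was at 33.7 CPM in Lhx6/Sst inhibitory cells and at 46.7 CPM in radial glia and astrocytes, which was 4.63% and 6.41% of its upper-layer level. A member whose level in one of these groups was no larger a share of its own upper-layer level is not read as expressed there. The class gates themselves limit Neurod2 in these groups, since the panel of the group had to hold at least 70% of all class UMIs. The Neurod2 share may therefore understate the background. Deep-layer neurons express Neurod2, so it gives no such share for them.

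**Figure D1:**
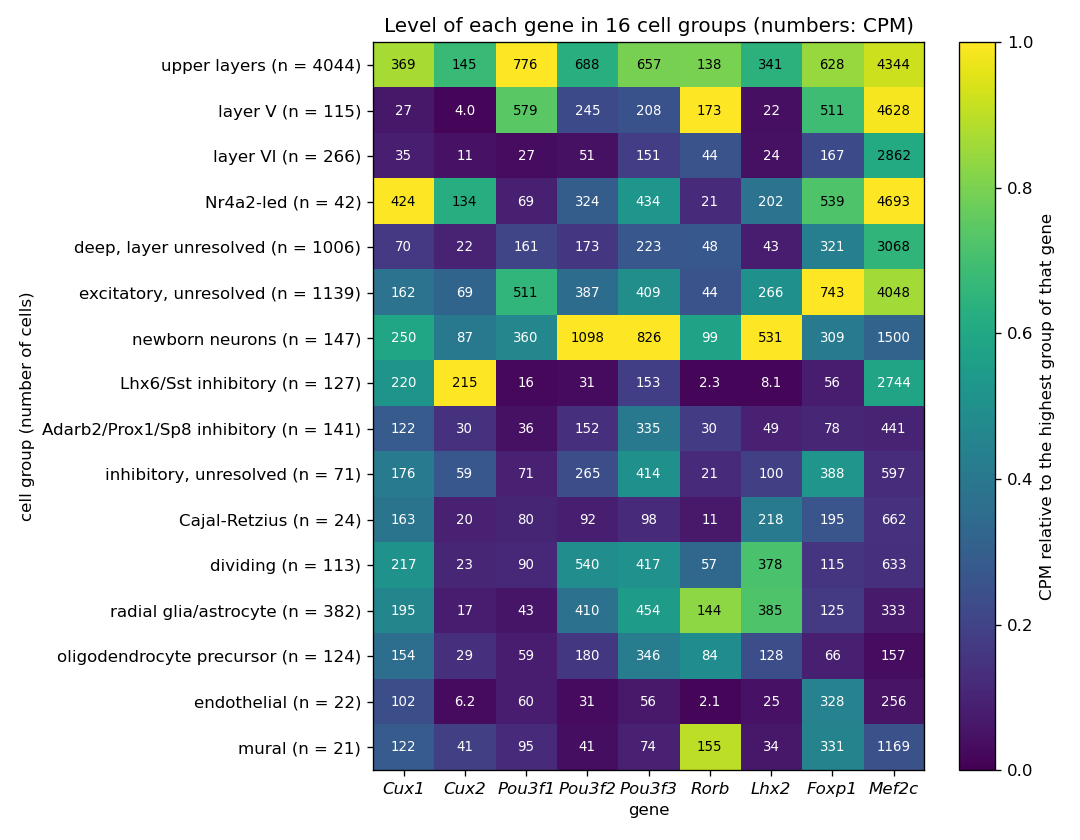
Levels of the 9 genes in the 16 cell groups with at least 20 cells. Numbers are CPM, and colour gives the level relative to the highest group of the same gene. Cux1, Cux2, Pou3f2 and Lhx2 are dark in layers V and VI, while Pou3f1, Rorb, Foxp1 and Mef2c are bright in layer V as well as in the upper layers.

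The first question was how far each gene separated upper from deep layers. Of the 9 genes, 7 were at least 2-fold higher in the upper-layer group than in the deep group, where 3.77% of the 9301 genes tested were, and 0 were at least 2-fold lower, where 5.24% of genes were. The median log2 difference was 1.94 over the 9 genes and -0.02 over all genes tested. The genes fell apart when layers V and VI were taken one by one. Against layer VI, 8 of the 9 were at least 2-fold higher (5.7% of all genes) and 0 lower (6.88%). Layer V cells had the highest median depth of the 16 groups. Against layer V only 5 were (9.27% of all genes): Cux1, Cux2, Pou3f2, Pou3f3 and Lhx2. None of the 9 was at least 2-fold lower than in layer V (5.48% of all genes). Between the deep layers, 4 of the 9 were at least 2-fold higher in layer V than in layer VI (4.99% of all genes), namely Pou3f1, Pou3f2, Rorb and Foxp1. Cux2 alone was lower (11.1% of all genes), but on 10 and 24 UMIs in all, and no difference between layers V and VI is read from it.

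Many layer V cells were among the deepest of the library. Without the 5% of cells with the most UMIs, 54 of the 115 layer V cells were left. Against these, the same number of genes, 5, were at least 2-fold higher in the upper layers (10.4% of all genes) and 0 lower (6.08%). Pou3f1 was then at 499 CPM (448 to 553) in layer V, at an upper-layer ratio of 1.57 (1.41 to 1.74). In these cells Rorb was at 108 CPM (85.4 to 135), so that its ratio was 1.20 (0.96 to 1.53), and Lhx2 was at 35.1 CPM (22.7 to 51.8), at a ratio of 9.71 (6.57 to 15.01) in place of 15.6. For the whole deep group 8 genes were then at least 2-fold higher (4.09% of all genes) and 0 lower (6.04%), and the ratio of Pou3f1 moved from 3.83 to 7.91 and that of Rorb from 2.12 to 3.32.

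Cux1 and Cux2 encode CUT homeobox factors that act on dendrites, spines and synapses of upper-layer neurons. Cux1 was at 369 CPM (363 to 375) in the upper-layer group, 26.6 (20.7 to 33.8) in layer V and 35.3 (27.9 to 44.0) in layer VI. This made it 13.8-fold higher than in layer V (10.9 to 17.9) and 10.5-fold higher than in layer VI (8.38 to 13.2). Cux2 was at 145 CPM (141 to 149) in the upper-layer group. It was represented by 10 UMIs in all layer V cells together, or 3.98 CPM (1.91 to 7.31), and by 24 UMIs or 10.7 CPM (6.87 to 15.96) in layer VI. Both genes were thus low in both deep layers. Neither was confined to excitatory cells, however. The highest Cux2 level of the 16 groups was in Lhx6/Sst inhibitory neurons, at 215 CPM (185 to 248), and Cux1 was at 220 CPM (190 to 253) there. In contrast, Cux2 was at 16.6 CPM in radial glia and astrocytes, where Cux1 was at 195 CPM.

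Pou3f1, Pou3f2 and Pou3f3 encode related POU factors, also known as Oct6, Brn2 and Brn1, of which Brn2 and Brn1 act together in the production and migration of upper-layer neurons. Pou3f2 was at 688 CPM (680 to 696) in the upper-layer group, 245 (226 to 265) in layer V and 50.9 (42.0 to 61.2) in layer VI. Pou3f3 was at 657 CPM (649 to 665), 208 (190 to 226) and 151 (135 to 168) in the same groups. Both were higher still in newborn neurons, at 1098 CPM (1043 to 1154) for Pou3f2 and 826 (779 to 876) for Pou3f3. They were also present in radial glia and astrocytes, at 410 and 454 CPM. Pou3f1 had another pattern. It was at 776 CPM (767 to 785) in the upper-layer group and 579 (549 to 609) in layer V, a ratio of 1.34 (1.27 to 1.41), but at 27.3 CPM (20.9 to 35.0) in layer VI. Layer V was therefore 21.2-fold above layer VI (16.4 to 27.9) for Pou3f1. In radial glia and astrocytes it was at 42.6 CPM, or 5.49% of its upper-layer level, which is not read as expression.

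Across the 16 groups, Pou3f2 and Pou3f3 were each among the 3 genes most like the other, with a Pearson correlation of 0.916 on log2 values. Because these genes varied together, their promoters are shown, as listed by RefSeq for GRCm38.p6 from 250 bases before to 50 bases after the start site. Capitals mark CCAAT boxes (letters CCAAT, searched on both strands).
Pou3f2 (chr4:22488317-22488616, minus strand): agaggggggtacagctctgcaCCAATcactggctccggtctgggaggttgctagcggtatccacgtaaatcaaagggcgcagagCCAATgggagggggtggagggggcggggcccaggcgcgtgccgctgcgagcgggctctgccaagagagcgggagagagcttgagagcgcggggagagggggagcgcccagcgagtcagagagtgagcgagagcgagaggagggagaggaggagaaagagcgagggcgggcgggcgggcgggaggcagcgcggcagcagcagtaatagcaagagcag
Pou3f3 (chr1:42695518-42695817, plus strand): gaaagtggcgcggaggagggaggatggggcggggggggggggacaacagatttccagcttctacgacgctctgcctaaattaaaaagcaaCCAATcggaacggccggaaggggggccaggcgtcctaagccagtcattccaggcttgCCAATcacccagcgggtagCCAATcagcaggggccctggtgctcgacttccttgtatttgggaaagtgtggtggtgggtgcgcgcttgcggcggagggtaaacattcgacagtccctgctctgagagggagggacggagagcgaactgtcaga
The Pou3f2 window held 2 CCAAT matches and the Pou3f3 window 3, all on the strand of the gene. Of the 32851 windows counted, which came from all chromosomes but 1, 37.4% held at least 1 match on either strand, so these letters are common. The octamer ATGCAAAT, the letters bound by many POU factors, was in 0 of the 15 windows listed for 8 of the 9 genes and in 1.74% of the 32851 windows. Pou3f1 was not matched in the table.

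Lhx2 encodes a LIM homeobox factor that keeps cortical identity in progenitors and persists in upper-layer neurons. It was at 341 CPM (335 to 347) in the upper-layer group, 21.9 (16.5 to 28.5) in layer V and 24.1 (18.1 to 31.5) in layer VI. Its ratio of the upper-layer to the deep group was 8.19 (7.59 to 8.85), and that of Cux2 was 7.0005 (6.28 to 7.82), so the intervals overlapped. Both depended on the gate: with layer panels at 50% in place of 70% of the UMIs the ratios were 4.30 for Lhx2 and 4.25 for Cux2, and at 90% they were 19.7 and 22.9. The level in newborn neurons was 531 CPM (493 to 571), and in radial glia and astrocytes it was 385 CPM (364 to 407), both above the upper-layer group.

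Rorb encodes an orphan nuclear receptor and is used as a mark of layer IV neurons. It was at 138 CPM (134 to 142) in the upper-layer group and at 173 CPM (157 to 190) in layer V. The upper-layer group was 0.80 of layer V (0.72 to 0.88). Without the deepest cells no order was resolved, as the interval given above spans 1. Layer VI held 44.2 CPM (35.96 to 53.9). Rorb was also at 144 CPM (131 to 157) in radial glia and astrocytes. In 21 mural cells it was at 155 CPM, but 18 of its 23 UMIs there came from 1 cell, and without that cell the level was 39.9 CPM (12.96 to 93.2). Lhx6/Sst inhibitory neurons held 2 Rorb UMIs in 127 cells, or 2.33 CPM.

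Foxp1, a forkhead factor of neuronal differentiation that is also known from striatal neurons, was at 628 CPM (620 to 636) in the upper-layer group, 511 (484 to 540) in layer V and 167 (151 to 185) in layer VI. The median cell went the other way for Foxp1 between the first 2 groups, at 165 CPM in upper-layer cells and 465 CPM in layer V. In the 1006 deep cells of unresolved layer the median was 1.83 Foxp1 UMIs per 10000, against 1.65 in upper-layer cells and 1.12 in layer VI. The upper-layer group stood 1.87-fold above the deep group (1.82 to 1.93), just under the 2-fold rule, and of the 16 groups excitatory cells of unresolved layer held its highest level, 743 CPM (728 to 758). The nearest gene inside the rule was Rorb at 2.12-fold (1.99 to 2.27). Mef2c, a MADS-box factor of neuronal maturation and synapse number, was the most even of the 9 over these layers. It was at 4344 CPM (4323 to 4365) in the upper-layer group, 4628 (4544 to 4713) in layer V and 2862 (2792 to 2933) in layer VI. A level of 2744 CPM (2634 to 2857) was found for Mef2c in Lhx6/Sst inhibitory neurons, compared with 441 CPM in Adarb2/Prox1/Sp8 inhibitory neurons and 333 CPM in radial glia and astrocytes. In the last of these 5 of the 382 cells held 46.7% of its UMIs and the level without them was 185 CPM. With all cells Mef2c was there at 7.68% of its upper-layer level, and Neurod2 at 6.41%. Neurod2 was not taken without its highest cells, so no reading of Mef2c expression is made there.

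**Figure D2:**
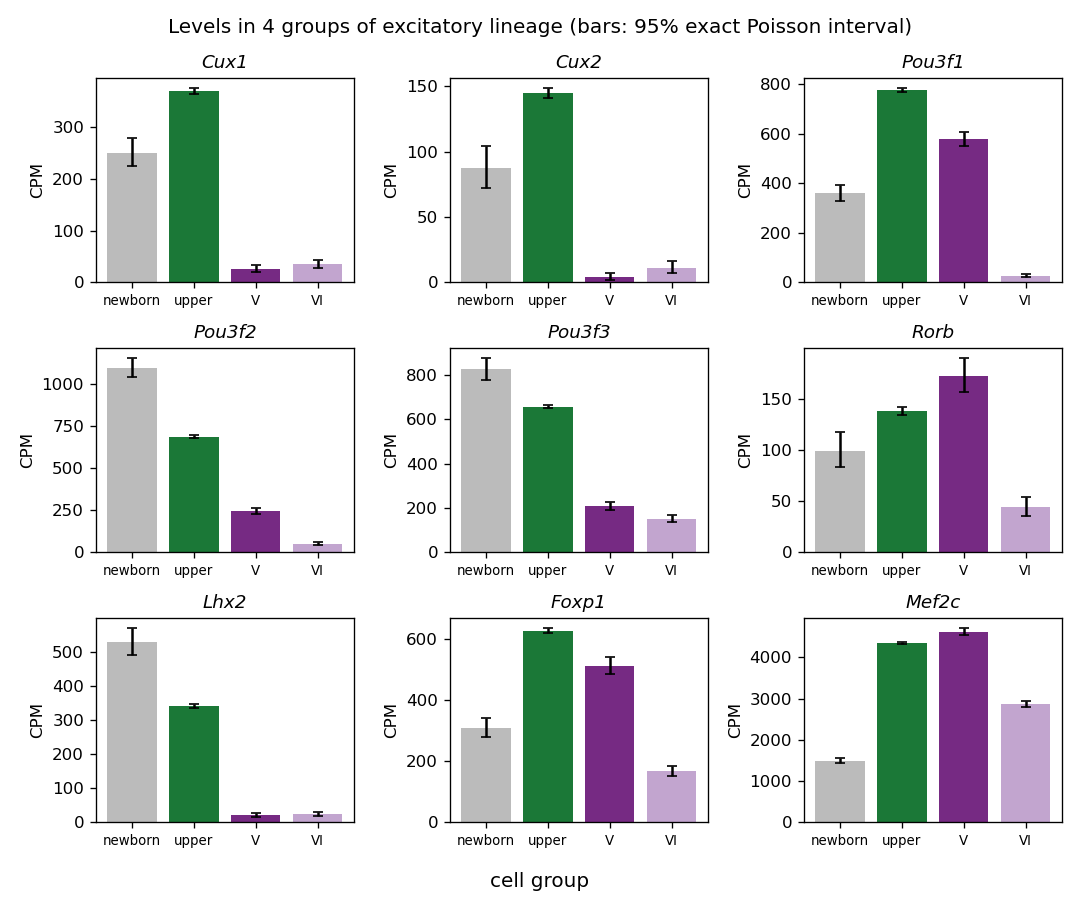
Levels of the 9 genes in newborn, upper-layer, layer V and layer VI neurons. Bars are CPM on axes that start at 0, and error bars are 95% exact Poisson intervals for counting error only. Pou3f1 and Foxp1 are close to the upper-layer level in layer V and low in layer VI, whereas Cux1, Cux2 and Lhx2 are low in both.

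The 42 cells of the Nr4a2-led group were set beside the other layers gene by gene. Cux1 was at 424 CPM (367 to 486) there and Cux2 at 134 (103 to 171), and both intervals overlapped those of the upper-layer group. Lhx2 was at 202 CPM (164 to 247) and Pou3f3 at 434 CPM (377 to 497), above layers V and VI. Foxp1 was at 539 CPM (475 to 608) and Mef2c at 4693 (4501 to 4891), and both overlapped layer V by their intervals. In contrast, Pou3f1 was at 68.9 CPM (47.4 to 96.7), far below the upper-layer group. Rorb was also below it, at 20.9 CPM (10.0 to 38.4), but on 10 UMIs, of which 80.0% lay in 5 cells, and it is not ranked against layer VI. These cells are part of the deep group in every comparison of upper with deep layers. Leaving them out kept 7 genes at least 2-fold higher in the upper layers (3.93% of all genes) and 0 lower (5.22%), with ratios of 6.32 for Cux1, 8.32 for Cux2 and 9.23 for Lhx2, where they had been 5.37, 7.0005 and 8.19.

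In relation to all inhibitory neurons pooled, 8 of the 9 genes were at least 2-fold higher in the upper-layer group (5.89% of all genes) and 0 were lower (8.28%). The pool of 348 cells joined the Lhx6/Sst, Adarb2/Prox1/Sp8, striatal-type and unresolved inhibitory cells. The exception was Cux2, at 145 against 114 CPM, a ratio of 1.27 (1.11 to 1.46). The classes differed. In Lhx6/Sst cells Cux2 was at 149% of its upper-layer level, Mef2c at 63.2% and Cux1 at 59.6%, so these were not 2-fold lower there. In Adarb2/Prox1/Sp8 cells Cux2 was at 21.1% and Pou3f3 at 51.0%. Of the 460 Foxp1 UMIs of the pool, 226 came from the 9 striatal-type cells. Relative to radial glia and astrocytes, 4 of the 9 were at least 2-fold higher (16.1% of all genes) and 0 lower (23.7%): Cux2, Pou3f1, Foxp1 and Mef2c. Compared with the upper-layer group, newborn neurons had 0 of the 9 at least 2-fold higher (8.9% of all genes) and 3 at least 2-fold lower (4.83%), namely Pou3f1 at a ratio of 0.46, Foxp1 at 0.49 and Mef2c at 0.35. A few newborn cells carried much of these sums: the 5 cells with the most UMIs of the gene held 46.2% of the Foxp1 UMIs and 36.3% of the Mef2c UMIs. The median newborn cell had 172 CPM of Mef2c and no UMI of Foxp1, compared with 3806 and 165 CPM in the median upper-layer cell.

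Shares of cells holding a UMI were compared after each cell had been thinned to 2000 UMIs, since the groups differed in depth. For 6 of the 9 genes the share in the upper-layer group was at least 2 times that in the deep group, as for 5.03% of all genes tested. Cux1 was found in 51.0% of upper-layer cells (49.4 to 52.5) and 10.9% of deep cells (9.35 to 12.6), with 39.4% of Lhx6/Sst inhibitory cells and 13.6% of endothelial cells (median 12910 UMIs before thinning). Lhx2 was found in 47.1% (45.5 to 48.6) and 6.72% (5.48 to 8.14), against 0.79% of Lhx6/Sst cells. Pou3f1 was found in 70.4% (68.9 to 71.8) and 14.1% (12.3 to 15.98), against 3.94% of Lhx6/Sst cells. These inhibitory cells had a median of 6036 UMIs before thinning. For Mef2c the share went against the level: 86.1% of upper-layer cells (84.9 to 87.1) and 96.9% of deep cells (95.9 to 97.8) held a UMI, although the CPM was higher in the upper layers, and no order between them is read from it.

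Upper-layer cells were not of 1 state. Igfbpl1, a gene of immature neurons, was highest in newborn neurons, at 2522 CPM, and was at 908 CPM in the upper-layer group and 362 CPM in the deep group. Upper-layer cells with at least 2 Igfbpl1 UMIs per 10000 (2975 cells, median 7482 UMIs) were therefore compared with those without an Igfbpl1 UMI (537 cells, median 12399 UMIs). At least 2-fold higher with Igfbpl1 were 4 of the 9 genes (2.72% of all genes), and 2 were at least 2-fold lower (4.84% of all genes).

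Pou3f2, Pou3f3 and both Cux genes were higher with Igfbpl1. Pou3f2 was at 917 CPM with it and 215 without, a ratio of 4.26 (4.03 to 4.497). The ratio was 3.07 (2.93 to 3.22) for Pou3f3, 2.75 (2.49 to 3.04) for Cux2 and 2.45 (2.31 to 2.61) for Cux1. Rorb and Foxp1 went the other way. Rorb was at 55.8 CPM with Igfbpl1 and 320 without, 5.73-fold higher without (5.35 to 6.13), and Foxp1 was at 319 and 1310 CPM, 4.10-fold higher without (3.98 to 4.23). Pou3f1 and Lhx2 were nearly level, with ratios of 0.95 (0.92 to 0.98) and 0.96 (0.92 to 1.005), and Mef2c was at a ratio of 0.65 (0.64 to 0.66).

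Over 5 steps of Igfbpl1 these levels differed by degrees. From cells without Igfbpl1 to those with 20 or more UMIs per 10000, Pou3f2 went from 215 through 401, 694 and 1023 to 1477 CPM. Foxp1 went from 1310 through 900.1, 406 and 146 to 53.6 CPM, and Rorb from 320 through 189, 65.5 and 32.2 to 23.3 CPM. Each step was apart from the next by its intervals for Pou3f2 and Foxp1. Mef2c went from 5503 through 5927, 4722 and 2707 to 897 CPM, a wider range than its ratio of 0.65 shows. Lhx2 stayed between 292 and 446 CPM, and Pou3f1 between 608 and 910.1 CPM. The median depth fell along the same steps, from 12399 to 5858 UMIs per cell, and its part in these values was not tested. The median mitochondrial share was 3.35% with Igfbpl1 and 3.39% without.

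**Figure D3:**
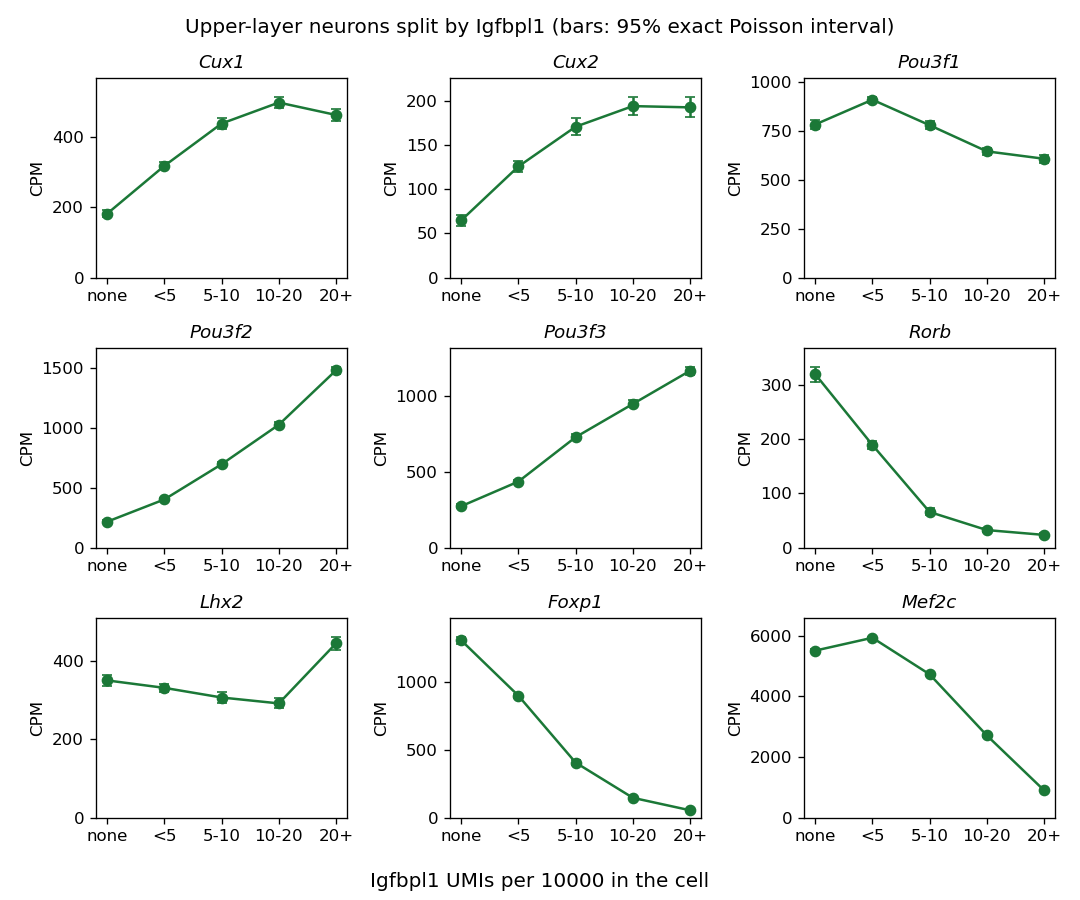
Levels of the 9 genes in upper-layer neurons in 5 steps of Igfbpl1, given as UMIs per 10000 in the cell. Points are CPM and error bars are 95% exact Poisson intervals, most of them smaller than the points. Pou3f2 and Pou3f3 are highest at the right, Rorb and Foxp1 at the left, and Lhx2 and Pou3f1 vary least.

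Which genes separated upper from deep layers depended on this split, which was added after the first values had been seen. Among cells without an Igfbpl1 UMI (537 upper-layer, 180 deep), 6 of the 9 genes were at least 2-fold higher in the upper layers (3.64% of all genes) and 0 lower (3.76%). Among cells with Igfbpl1 (2975 and 938) it was also 6 (4.22% of all genes) with 0 lower (7.06%), but not the same 6. Cux1, Cux2, Pou3f1 and Lhx2 passed in both. Pou3f2 was at a ratio of 5.06 (4.82 to 5.32) with Igfbpl1 and 1.49 (1.32 to 1.69) without, and Pou3f3 at 3.35 (3.22 to 3.50) and 1.67 (1.49 to 1.87). The reverse held for Rorb, at 1.605 (1.42 to 1.81) with and 3.06 (2.67 to 3.51) without, and for Foxp1, at 1.24 (1.19 to 1.30) and 2.68 (2.51 to 2.85). Mef2c was at 1.25 and 1.32.

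The deep group was split in the same way to see whether its levels moved too. Of the 9 genes, 0 were at least 2-fold higher with Igfbpl1 (2.26% of all genes) and 2 were at least 2-fold lower (2.37% of all genes). Pou3f2 was at 181 CPM with Igfbpl1 and 144 without, a ratio of 1.25 (1.11 to 1.42), where the same ratio in the upper layers was 4.26. The ratio was 1.53 (1.37 to 1.71) for Pou3f3 and 1.54 (1.09 to 2.23) for Cux2, and Cux1 was at 80.9 and 69.1 CPM. Foxp1 was lower with Igfbpl1, at a ratio of 0.53 (0.49 to 0.56), and Mef2c at 0.69. Rorb was at 34.8 and 105 CPM, and Pou3f1 at 115 and 286 CPM, the latter at a ratio of 0.40 (0.36 to 0.44). The share of cells with Igfbpl1 was 7.83% in layer V and 77.4% in layer VI, so layer V made up more of the deep cells without it. Against the 49 layer V cells without Igfbpl1, upper-layer cells without it had 4 of the 9 genes at least 2-fold higher (8.82% of all genes) and 0 lower (4.03%): Cux1, Cux2, Lhx2 and Foxp1. Pou3f2 was at 215 against 206 CPM there, and Rorb at 320 against 186 CPM, a ratio of 1.71 (1.48 to 2.0001).

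The next question was how many of the 9 genes a single cell held. At 2000 UMIs per cell, an upper-layer cell held a UMI for a mean of 4.75 of the 9 genes, and 57.4% of these cells (55.8 to 58.9) held 5 or more. The mean was 3.93 in newborn neurons, 3.096 in layer V, 1.89 in layer VI and 2.81 in radial glia and astrocytes. The share with 5 or more was 32.0% (24.5 to 40.2) in newborn neurons, 12.2% (6.82 to 19.6) in layer V and 1.13% (0.23 to 3.26) in layer VI. All 9 genes were found in 6 of 4044 upper-layer cells. The share depends on the depth chosen, as given in the closing section.

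**Figure D4:**
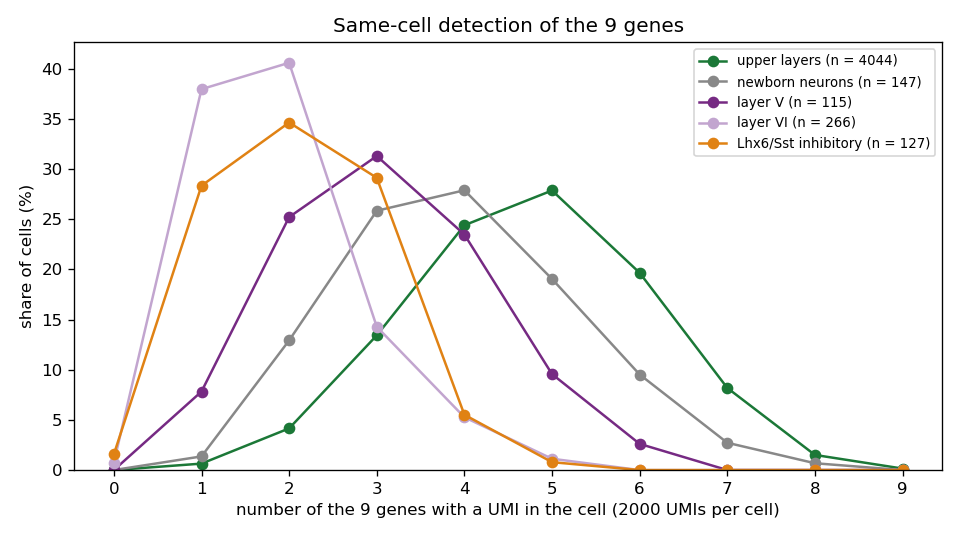
Number of the 9 genes with a UMI per cell, after thinning to 2000 UMIs, in 5 cell groups. The x axis is the number of genes, the y axis the share of cells in percent. The upper-layer curve peaks at 5 genes, the layer V curve at 3 and the layer VI curve at 2.

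Within the Pou3f family, all 3 genes were found together in 37.9% of upper-layer cells (36.4 to 39.4), in 12.2% of layer V cells and in 0 of 266 layer VI cells, where the product of the 3 shares gives 0.33 cells, so that 0 is no information on the combination. The product was 34.2% in upper-layer cells, 6.54% in layer V and 26.5% in newborn neurons. Newborn neurons held all 3 in 26.5% (19.6 to 34.4) and Pou3f2 with Pou3f3 but no Pou3f1 in 34.0% (26.4 to 42.3). The latter pair was also the most common of the Pou3f combinations in radial glia and astrocytes, at 30.6% (26.0 to 35.5). Layer V differed: beside the 25.2% of its cells with none of the 3, Pou3f1 alone was the most common, in 22.6% of cells (15.3 to 31.3). This overlapped Pou3f1 with Pou3f3 but no Pou3f2, at 13.9% (8.17 to 21.6). Cux1 and Cux2 were found together in 16.2% of upper-layer cells (15.1 to 17.4), 18.1% of Lhx6/Sst inhibitory cells (11.8 to 25.9) and 0 of 115 layer V cells, where the product of the shares gives 0.087 cells. For this pair the product was 13.7% in upper-layer cells and 14.6% in Lhx6/Sst cells.

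Pairs of genes in upper-layer cells were set against the product of the 2 shares. Rorb and Foxp1 were found together in 9.59% of the cells, where the product was 5.33%, a ratio of 1.80 that moved with depth, from 2.16 at 1000 UMIs per cell to 1.46 at 5000. Pou3f2 with Foxp1 was found in 21.3%, below the product of 27.8%. The same pairs were then taken within the Igfbpl1 classes. Pou3f2 with Foxp1 was at 0.87 of its product with Igfbpl1, at 18.2% (16.8 to 19.7) against 21.1%. Without Igfbpl1 it was at 0.96, at 27.6% (23.8 to 31.5) against 28.8%. Among upper-layer cells with Igfbpl1, Rorb with Foxp1 was 1.88 times the product, at 3.60% (2.96 to 4.33) against 1.91%. Among those without it the ratio was 1.07, at 28.5% (24.7 to 32.5) against 26.6%, and Foxp1 was found in 84.2% of these cells. At that share the ratio cannot exceed 1.19, where it could have reached 3.74 with Igfbpl1, so the 2 ratios are not compared. Cux1 with Cux2 was found in 18.8% of cells (17.4 to 20.3) with Igfbpl1, where the product was 17.6% and the largest possible ratio 1.76. Without Igfbpl1 it was 8.19% (6.02 to 10.8) against 4.78%, and the largest possible ratio was 3.27. Without Igfbpl1, every pair of a Cux with a Pou3f gene was above its product, from 1.25 for Cux1 with Pou3f2 to 1.53 for Cux2 with Pou3f2. For Cux1 with Pou3f2 the observed 13.0% (10.3 to 16.2) still held the product of 10.5% in its interval. The same held for Cux2 with Pou3f3, at 8.75% (6.50 to 11.5) against 6.73%. Cux2 with Rorb was not above its product, with ratios of 0.93 with and 0.94 without Igfbpl1.

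**Figure D5:**
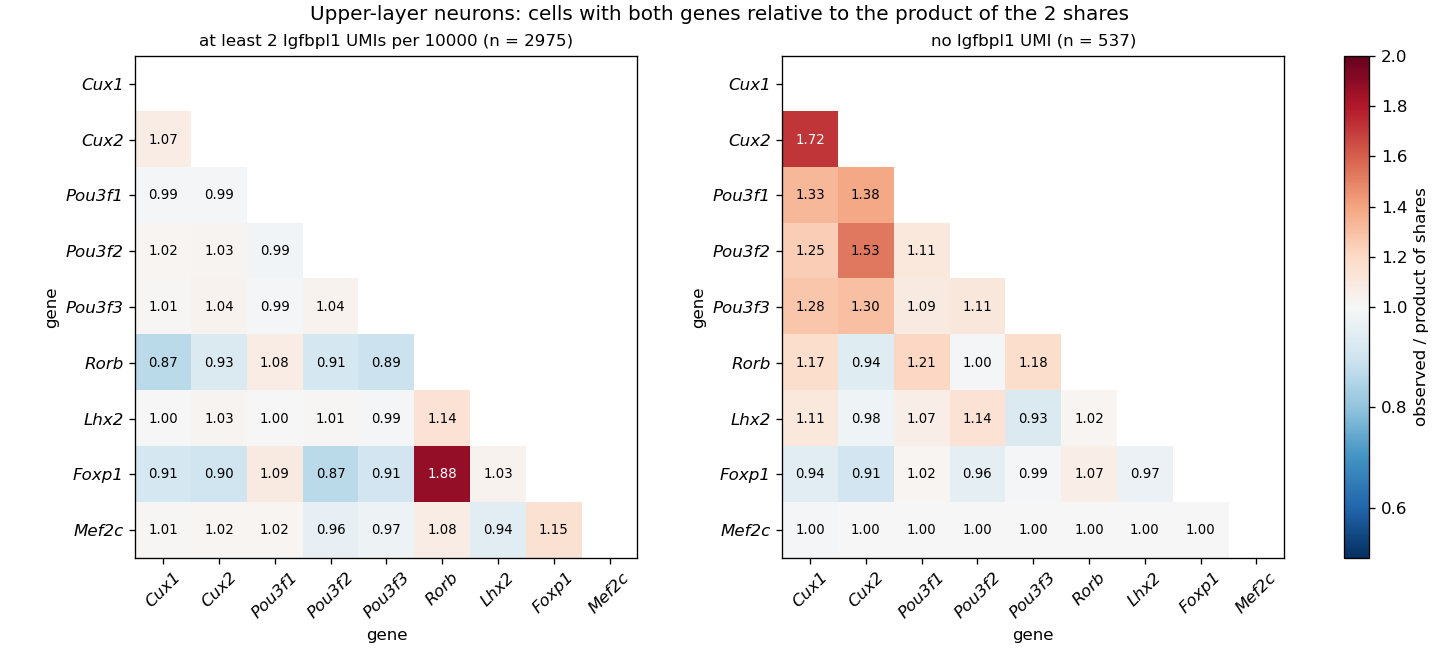
Same-cell detection of the 36 pairs of the 9 genes in upper-layer neurons with (left) and without (right) Igfbpl1, at 2000 UMIs per cell. Numbers and colour give the share of cells with both genes divided by the product of the 2 shares. Rorb with Foxp1 stands at 1.88 on the left, and Cux1 with Cux2 at 1.72 on the right. Since the ratio cannot exceed 1 divided by the larger share, pairs with a gene found in most cells stay near 1.

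Upper-layer cells with a Rorb UMI (1244 cells, median 11888 UMIs) were compared with those without (2800 cells, median 7481), to ask which of the other 8 genes went with it. Foxp1 was at 972 CPM with Rorb and 389 without, a ratio of 2.50 (2.44 to 2.57), and was the only one at least 2-fold higher (1.33% of all genes). None of the 8 was at least 2-fold lower (0.657% of all genes). Pou3f2 was lowest, at a ratio of 0.57 (0.56 to 0.59). Among cells with Igfbpl1, Foxp1 was at 580 and 211 CPM, a ratio of 2.75 (2.63 to 2.87). It was again the 1 gene of the 8 to pass (1.01% of all genes), with 0 lower (0.0336%). Igfbpl1 was not held equal within this class, and both Rorb and Foxp1 fell over its steps. Cells with Rorb also had a median of 10200 UMIs there, against 7104. Among upper-layer cells without Igfbpl1, Foxp1 was at 1387 and 1187 CPM, a ratio of 1.17 (1.12 to 1.22). In these cells 0 of the 8 were 2-fold higher (1.01% of all genes) or lower (1.15%). In that group Cux1 had the largest ratio, at 1.72 (1.51 to 1.96), followed by Pou3f1 at 1.595 (1.501 to 1.70).

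After thinning to 2000 UMIs per cell, 67 upper-layer cells held a UMI of Fezf2, a layer V gate gene. In these Cux1 was found in 20.9%, compared with 51.5% of the other upper-layer cells, and Foxp1 in 70.1% compared with 40.4%. Upper-layer cells without Igfbpl1 differed in the same direction from those with it. Cux1 was found in 30.5% without and 57.0% with Igfbpl1, and Foxp1 in 84.2% and 26.7%. Whether the Fezf2 cells differed from other cells of the same Igfbpl1 class was not tested.

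Other regulators were placed beside the 9 genes by family. Among Satb1 and the Onecut genes, Onecut2 was 3.15-fold higher in the upper-layer than in the deep group (2.63 to 3.80), out of 2 tested. Of the other POU genes, 3 were tested and 0 were 2-fold apart. Pou3f4, the remaining Pou3f gene, was just under the minimum of 10 CPM and was not tested, at 9.97 against 2.01 CPM, a ratio of 4.97 (3.49 to 7.27). Of LIM homeobox and LMO genes, 4 were tested, with Lmo4 2.66-fold higher (2.56 to 2.77) and Lmo3 lower, at 105 against 229 CPM. Lmo2 was under the minimum, at 8.12 against 2.66 CPM. Foxp4 was at a ratio of 1.06 (0.97 to 1.16), and Foxp2, which is a gate gene, was lower. Mef2a and Mef2d were at 0.81 and 0.997. Rora, the relative of Rorb, was 4.73-fold higher (3.60 to 6.32). Pantr1, the noncoding neighbour of Pou3f3, was 4.10-fold higher (3.92 to 4.29), at 499.8 against 122 CPM.

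Of 12 callosal and upper-layer regulators outside the list, 3 of them gate genes of the excitatory class, 5 were at least 2-fold higher in the upper-layer group (3.77% of all genes): Lmo4, Tle1, Tle3, Cited2 and Neurod1. The count was 3 with layer panels at 50% of the UMIs and 8 at 90%. Hey1 was lower, at 4.07 against 11.6 CPM, and Id2 was at a ratio of 0.51. Their median log2 difference was 0.86. Of 13 deep-layer regulators, 0 were at least 2-fold higher and 11 lower (5.24% of all genes), but 9 of the 13 were gate genes. Outside the gates, Sox5 was at 75.3 against 689.9 CPM and Tshz3 at 60.1 against 229 CPM, while Tbr1 was at a ratio of 0.55 (0.53 to 0.58) and Bcl11a at 1.30 (1.27 to 1.33).

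The genes most like each of the 9 were sought over the 16 groups among 11635 genes, by the Pearson correlation of log2 CPM. The groups came from 1 library, so these values are descriptions. Pou3f3 was most like Pantr1, at 0.944. Lhx2 was most like Zfhx4 (0.909) and Pou3f2 (0.831), and Pou3f1 was most like the gate gene Bhlhe22 (0.879) and Mlip (0.867). Mef2c was most like Rbfox1 (0.941), a splicing factor of neurons. Foxp1 was most like the gate gene Hs6st2 (0.806), Cux2 most like B230216N24Rik (0.873) and Rorb most like Mrps17 (0.801), with the mural level that rests on 1 cell among the 16 values. Cux1 was most like A430110C17Rik (0.895) and Gm38082 (0.785), which lie within Cux1 on the same strand in the GENCODE annotation, so their reads and those of Cux1 may not be told apart. Among the 9 themselves, Pou3f2 with Pou3f3 was the highest pair, followed by Pou3f2 with Lhx2 and by Cux1 with Cux2 (0.765). Rorb with Cux2 was at -0.15.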

How the data were processed

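The authors deposited raw UMI counts per gene and cell, not normalized, for the WT library. Per the labels and the study's methods, cells of the P0 cortex were captured with the 10x Chromium 3′ kit and sequenced on an Illumina instrument. The submitters' processing notes name STAR, Cell Ranger (version 2), Seurat and the mm9 build. The settings of STAR and Cell Ranger are not given in the sources used here, and the Seurat clusters of the study were not used. Genes are given by symbol, of which 47624 of 51912 occur in GENCODE release M21, and no gene coordinates were taken from the table. In that annotation other genes overlap Cux1, Pou3f3 and Foxp1 on the same strand and Cux1, Cux2, Pou3f1 and Lhx2 on the other, and how their reads were split is not given, so these levels are uncertain to that extent. Counts were used as deposited. Cells with fewer than 2000 non-mitochondrial UMIs were left out (2615 cells).

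The 9 genes, the marker panels and the other gene lists were chosen with earlier results of these data known. Cells were gated first as dividing (at least 5 UMIs of Top2a, Mki67, Cenpf and Nusap1), then by class. A class needed at least 3 UMIs and at least 70% of the UMIs of all class panels, newborn neurons at least 2 UMIs of their panel, and layers the same rule as classes. The same gates gave inhibitory groups, radial glia and astrocytes and the other groups. Cells of several classes (337) and cells that met no gate (305) were left out. No doublet caller was run.

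Levels are CPM with exact Poisson intervals, ratios have exact conditional binomial intervals, and shares have exact Clopper-Pearson intervals, all at 95% and for counting error only. A gene entered a comparison with at least 10 CPM in either group and was counted from a 2-fold ratio on. Cells are not replicates, so no p-value is given. Shares used cells thinned to 2000 UMIs, with seed 1. Likeness used log2(CPM + 10) over groups of at least 20 cells, for genes of at least 20 CPM in some group. The ratio step was tested on simulated sums of 2 groups that held counting error alone. Differences between cells were not simulated, so that test says nothing about them. The 16 groups, related lists and the 3 genes most like each of the 9 were named by rule. The Igfbpl1 steps, the comparisons within Igfbpl1 classes, the Fezf2 cells, the layers without the deepest cells, the levels without the highest cells and the promoter windows were chosen after values had been seen. Python 3.11.15, numpy 2.4.6, scipy 1.17.1 and pandas 2.3.3 were used. Genes of the related lists and an alternative gate that are not reported here were left out of the counts.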

Additional observations from a re-analysis of the deposited data

How the results depend on the processing

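No paired analysis was possible because a single library was analysed. The count of 7 genes at least 2-fold higher in the upper-layer than in the deep group was between 5 and 8 under the alternatives reported here, and lowest when layer V alone stood for the deep layers. There Rorb turned to a ratio of 0.80. Leaving out each of the 8 panel genes in turn, and cells of at least 500 or 5000 UMIs kept the count at 7. The count of genes whose share of cells was at least 2 times higher ranged from 4 without thinning to 6. The share of upper-layer cells with 5 or more of the 9 genes moved with depth and gate: it was 18.4% at 1000 UMIs per cell, 92.4% at 5000 and 95.8% without thinning, and 53.8% and 62.9% at a gate dominance of 50% and 90%. The count of 6 genes 2-fold apart by Igfbpl1 was also 6 with a minimum of 5 UMIs per 10000. Without the 5% of cells with the most UMIs (no doublet caller was run), the upper-layer to deep count was 8, the ratio of Pou3f1 moved from 3.83 to 7.91 and that of Rorb from 2.12 to 3.32. The same cells left out, an alternative added after seeing the data, moved the upper-layer to layer V ratio of Rorb from 0.80 to 1.20 (0.96 to 1.53). That interval spans 1, so no order is read from it. The ratios to the deep group also moved with gate dominance, between 50% and 90%: Lhx2 from 4.30 to 19.7, Cux2 from 4.25 to 22.9, Cux1 from 3.83 to 11.8, Pou3f1 from 2.80 to 9.21 and Pou3f2 from 2.99 to 8.35. As a mean over cells of the CPM per cell, Pou3f1 was at a ratio of 6.10. The ratio of cells with both Rorb and Foxp1 to the product of the shares was 1.80, and 2.16, 1.46 and 1.40 at 1000 UMIs, at 5000 and without thinning. With 2 Rorb UMIs in place of 1, the count of genes 2-fold apart was 2 instead of 1, as Pou3f2 reached a ratio of 0.45. The count of 5 of 12 other callosal and upper-layer regulators that were higher was 3 at a gate dominance of 50% and 8 at 90%, alternatives added after seeing the data. With 1 library and no other animals to compare, nothing here shows how these values vary between mice.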

Other observations

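Small groups and cells left out above hold values of their own. Foxp1 was at 2335 CPM in 9 cells gated as striatal-type inhibitory neurons, its highest level in any gate, with Bcl11b at 1395 CPM there. Foxp1 was also at 328 CPM in 22 endothelial cells and 331 CPM in 21 mural cells, and Mef2c was at 712 CPM in 12 microglia. Of the 49 Foxp1 UMIs in mural cells, 18 came from 1 cell, and without it the level was 248 CPM (168 to 351). Among endothelial cells 5 held 61.4% of the Foxp1 UMIs, and the level without them was 275 CPM. In mural cells 117 of the 173 Mef2c UMIs came from 1 cell, and without it the level was 447 CPM (338 to 581). Neurod2 was at 11.1% of its upper-layer level in mural cells with all cells kept, so the Mef2c level without 1 cell is not ranked against it. The median mural cell held 3 Mef2c UMIs, or 427 CPM. Whether mural cells express Mef2c is not read from these values. In the 2615 cells under 2000 UMIs, which had a median mitochondrial share of 18.9%, Cux2 was at 237 CPM and Pou3f3 at 844 CPM, above the upper-layer group, while Foxp1 was at 305 CPM and Rorb at 64.2 CPM. Igfbpl1 was at 1495 CPM in these cells.

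Beside the 9 genes, the genes outside the gate panels and of at least 50 CPM in either group with the largest ratio of the upper-layer to the deep group were Ptn (10.4-fold, 10.1 to 10.6), Palmd (8.61-fold), Slc17a6 (7.69-fold), Fam19a2 (6.54-fold) and Ajap1 (6.15-fold). Lhx2 and Cux2 were at ratios of this size. Among the genes outside the gate panels the lowest ratios were those of Crym, at 2.24 against 187 CPM, Nts, at 0.95 against 79.2 CPM, and Nxph3, at 2.63 against 183 CPM. Slc17a6, Crym and Nxph3 were in the panels of check genes, which were kept out of the gates.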
